A study of Homo sapiens with 17 samples.

Results

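The transcripts of 6 genes that encode splicing factors or heterogeneous nuclear ribonucleoproteins (hnRNPs) were examined for eCLIP signal of 6 other proteins: SRRM2, SON, HNRNPU, HNRNPA2B1, HNRNPH1 and SRSF3. Members were the peaks, of all 389788 peaks in 11 peak lists, whose midpoint lay on the gene's strand inside its hg19 span, and 1634 peaks met that rule. The study applied eCLIP, in which RNA crosslinked to a protein by ultraviolet light is immunoprecipitated and sequenced, to 293T, a cell line derived from human embryonic kidney. Antibodies were directed against AIFM1 (2 libraries), NUMA1 (2), RANGAP1 (2), RNF219 (1), VIM (2) and ZNF184 (2), all from Bethyl, and each protein had 1 size-matched input, a library of lysate RNA of the same size range that was not precipitated. All libraries came from cells irradiated at 254 nm with 400 mJ/cm2 and lysates cut with RNase I, with RNA taken from the gel up to 75 kDa above the size of the protein. Replicates are called biological in the series' design, and the labels list a single input for each protein, whose counting error is therefore common to the folds of its replicates.

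SRRM2 and SON are large proteins that scaffold nuclear speckles, the nuclear bodies where splicing factors concentrate. HNRNPU binds nuclear RNA and chromatin, HNRNPA2B1 and HNRNPH1 bind pre-mRNA and influence exon choice, and SRSF3 is a small serine and arginine rich splicing factor. Transcripts of such genes are known for highly conserved alternative exons and retained introns through which many of the proteins limit their own level. Of the precipitated proteins, NUMA1 organises the mitotic spindle, RANGAP1 activates the GTPase Ran at the nuclear pore, VIM is the intermediate filament protein vimentin, AIFM1 is a mitochondrial flavoprotein, and ZNF184 is a zinc finger protein.

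The 6 spans held very different numbers of peaks, and nearly all lay on the sense strand. SRRM2, at chr16:2802330-2821413 on the plus strand, is 19084 nt long and had 441 peaks over the 11 libraries. SON, at chr21:34915350-34949812 on the plus strand, is 34463 nt long and had 218 peaks. HNRNPU, at chr1:245013602-245027844 on the minus strand, is 14243 nt long and had 318 peaks. The 3 other spans are of similar length. HNRNPA2B1, at chr7:26229556-26240413 on the minus strand, had 288 peaks in 10858 nt, and HNRNPH1, at chr5:179041179-179051700 on the minus strand, had 287 in 10522 nt. SRSF3, at chr6:36562090-36572244 on the plus strand, had 82 peaks in 10155 nt. The opposite strand of all 6 spans held 1 peak, in SRRM2.

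Library size varied widely, from 10682 peaks in VIM replicate 1 to 63198 in ZNF184 replicate 1, and the members supplied between 85 and 258 peaks of a library. The authors' value for a peak is the log2 of its eCLIP reads over its input reads, each scaled to library depth, and its median over a whole library without chromosome M was lowest in AIFM1 replicate 2, at 0.68, and highest in VIM replicate 1, at 2.27. Because of that spread, differences between proteins were tested on centred values, the gene's median log2 fold minus the library's median. Read counts behind the peaks were recovered from the deposited fold and p for 67.2% of member peaks. Member peaks held a median of 12 to 29 input reads in the NUMA1, RANGAP1, VIM and ZNF184 libraries, against 3 to 5 over all peaks of those libraries. The medians were 2.5 to 4 in the AIFM1 and RNF219 libraries, against 1 or 2 over all their peaks.

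Fold over input on the 6 transcripts was modest in most libraries and was highest with RNF219 on 5 of them. Median log2 folds of a gene in a library ran from -0.67 (SRSF3, NUMA1 replicate 1) to 2.24 (SRSF3, RNF219). SRRM2 was the exception, with its highest value in RANGAP1 and one of its lowest in RNF219. The values, orders and overlaps given by gene below are of deposited folds, and some orders change with centring. On centred means, AIFM1 was above RANGAP1 on SRRM2 (0.16 and 0.04). AIFM1 was also above NUMA1 on HNRNPU (-0.21 and -0.28) and HNRNPA2B1 (-0.24 and -0.43). VIM was lowest on SON (-1.09) and below ZNF184 on SRSF3 (-1.55 and -0.83). RNF219 stayed highest on the same 5 genes.

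**Figure D1:**
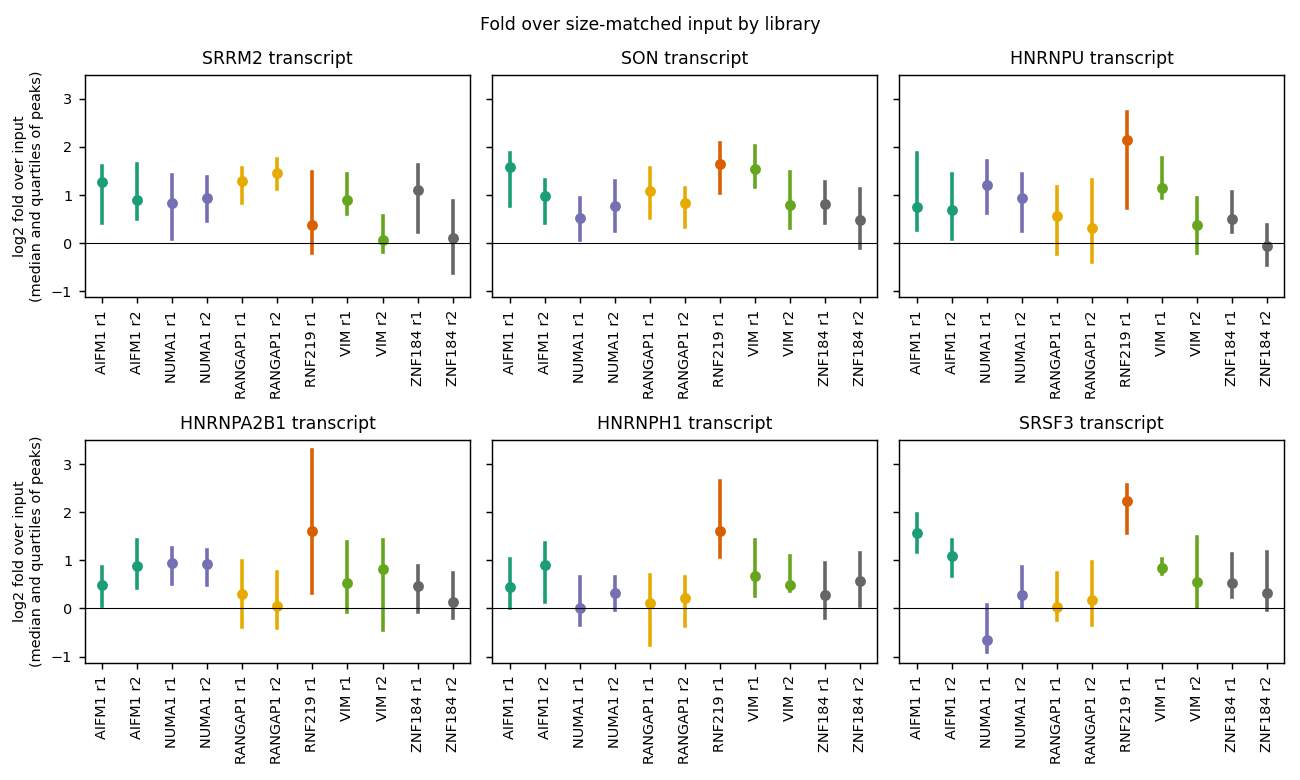
Median log2 fold over input (points) and quartiles (bars) of the peaks of each of the 6 transcripts in each of the 11 libraries, r1 and r2 being replicates. RNF219 stands at 1.60 to 2.24 on the 4 transcripts HNRNPU, HNRNPA2B1, HNRNPH1 and SRSF3, and at 0.38 on SRRM2.

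SRRM2, which encodes a component of the catalytic spliceosome and a speckle scaffold, had median log2 folds of 1.29 and 1.45 with RANGAP1, 1.28 and 0.90 with AIFM1, 0.84 and 0.93 with NUMA1, 1.11 and 0.11 with ZNF184, 0.90 and 0.07 with VIM, and 0.38 with RNF219. All 52 and all 50 of its RANGAP1 peaks were above input, as were all 27 peaks in VIM replicate 1, against 18 of 30 in VIM replicate 2. The order of protein means was RANGAP1, AIFM1, NUMA1, ZNF184, VIM and RNF219. RANGAP1 averaged 1.37 ± 0.11 and NUMA1 averaged 0.88 ± 0.07 (SD, n = 2), with no overlap between their replicates. The ranges of AIFM1 and RANGAP1 stood next to each other without overlap, 0.90 to 1.28 and 1.29 to 1.45, AIFM1 and NUMA1 overlapped, and ZNF184 and VIM each spread over most of the scale.

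SON, which encodes the other large speckle scaffold, had 1.65 with RNF219, 1.57 and 0.97 with AIFM1, 1.54 and 0.79 with VIM, 1.09 and 0.83 with RANGAP1, 0.53 and 0.77 with NUMA1, and 0.82 and 0.47 with ZNF184. AIFM1 averaged 1.27 ± 0.43, VIM 1.16 ± 0.53, RANGAP1 0.96 ± 0.19, NUMA1 0.65 ± 0.17 and ZNF184 0.65 ± 0.25 (SD, n = 2 each). The replicate ranges of each neighbouring pair from AIFM1 down to RANGAP1 overlapped, as did those of NUMA1 and ZNF184, so their order lay within the spread. Counts of peaks on SON were low in AIFM1 (6 and 9) and in VIM (9 and 8).

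HNRNPU, whose product is also called scaffold attachment factor A, had 2.15 with RNF219, 1.21 and 0.95 with NUMA1, 1.14 and 0.38 with VIM, 0.75 and 0.68 with AIFM1, 0.56 and 0.32 with RANGAP1, and 0.51 and -0.07 with ZNF184. RNF219 lay above every other library. NUMA1 averaged 1.08 ± 0.19 and AIFM1 averaged 0.72 ± 0.05 (SD, n = 2 each), again without overlap, and the range of the 2 VIM values overlapped both. RANGAP1 and ZNF184, at the bottom, overlapped.

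HNRNPA2B1, whose product binds RNA in splicing, transport and stability, had 1.60 with RNF219, 0.95 and 0.92 with NUMA1, 0.48 and 0.89 with AIFM1, 0.53 and 0.81 with VIM, 0.46 and 0.13 with ZNF184, and 0.29 and 0.04 with RANGAP1. The NUMA1 replicates were close, with a mean of 0.94 ± 0.03 (SD, n = 2), and lay above both AIFM1 replicates. AIFM1 and VIM overlapped, and so did ZNF184 and RANGAP1.

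HNRNPH1, whose product binds runs of G in pre-mRNA, had 1.60 with RNF219, 0.44 and 0.90 with AIFM1, 0.68 and 0.48 with VIM, 0.28 and 0.57 with ZNF184, 0.02 and 0.33 with NUMA1, and 0.11 and 0.21 with RANGAP1. Below RNF219 every pair of neighbours in the order of means overlapped. SRSF3, which carried the fewest peaks (4 to 11 a library), showed the widest range: 2.24 with RNF219, 1.57 and 1.10 with AIFM1, 0.85 and 0.55 with VIM, 0.53 and 0.33 with ZNF184, 0.03 and 0.17 with RANGAP1, and -0.67 and 0.28 with NUMA1. AIFM1, at 1.33 ± 0.34, was above VIM, at 0.70 ± 0.21, without overlap (SD, n = 2 each), and VIM and ZNF184 did not overlap either. RANGAP1 and NUMA1, the lowest, overlapped.

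Whether a protein differed from the other 5 on each transcript was tested with limma on the centred medians of 658 features, the 6 spans and strand-specific 10-kb windows with at least 3 peaks in at least 8 libraries and a value for every protein, with p-values adjusted over all 658 by Benjamini-Hochberg. Of the 36 combinations of gene and protein, 12 passed an adjusted p of 0.05: 4 with RNF219, 6 with VIM, 1 with AIFM1 and 1 with NUMA1. The proteins compared share libraries, since each is set against the mean of the others, so one library enters all 6 contrasts.

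RNF219 was higher than the other proteins on SRSF3, HNRNPU, HNRNPH1 and HNRNPA2B1. The background was 12.6% of features higher and 21.9% lower with RNF219. On SRSF3 the centred value was 1.17 with RNF219 and averaged -0.95 with the others, a log2 difference of 2.12 ± 0.39 (SE, limma adjusted p = 0.00477). On HNRNPU the centred values were 1.08 and -0.78, a difference of 1.86 ± 0.41 (SE, adjusted p = 0.00834). HNRNPH1 differed by 1.55 ± 0.39 (SE, adjusted p = 0.0142) and HNRNPA2B1 by 1.41 ± 0.40 (SE, adjusted p = 0.0223). SON, at 1.06 ± 0.38, missed the threshold narrowly (SE, adjusted p = 0.0501), and SRRM2, at -0.15 ± 0.43, was on the other side of 0 (SE, adjusted p = 0.813). The median difference over the 6 genes was 1.48, against -0.29 over all 658 features. RNF219 was 1 library, and the limma fit takes its spread to be that of the replicated proteins. Its SRSF3 value came from 6 peaks with a median of 1.5 recovered input reads.

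Input reads are the denominator of the fold. Medians by input reads given here are of peaks with recovered reads, all above input. Member medians were lower at 10 or more input reads than at 1 to 3 in every library. The group with 1 to 3 held only 2 to 8 member peaks in each NUMA1, RANGAP1, VIM and ZNF184 library. In ZNF184 replicate 1, for example, 3 member peaks with 1 to 3 input reads had a median of 3.77, against 2.03 in other peaks, and 132 with 10 or more had 1.02, against 0.71. In RNF219, 18.5% of member peaks held 10 or more input reads by a lower-bound count, and in the AIFM1 libraries 17.6% and 12.8%, against 56.2 to 75.6% in the others. Where reads were not recovered, as in all peaks below input, that count took the input number of the lowest whole ratio. The 248 member peaks without such a ratio were counted as fewer than 10. Ratios above 200 eCLIP or 50 input reads in lowest terms were not sought, so some of these peaks could be deeply read. RNF219 member peaks above input with 1 to 3 recovered input reads numbered 67 and had a median log2 fold of 2.58, against 1.07 in the 14239 other RNF219 peaks with as many input reads. With 4 to 9 input reads, 34 member peaks had a median of 1.07, against 0.81 in other peaks, and with 10 or more, 7 member peaks had 0.56, against 0.49. When peaks with fewer than 10 input reads by the lower-bound count were left out of all libraries, 29 features and 3 of the genes could be tested. In RNF219, 25 peaks of the 6 genes remained. Reads were recovered for 7 of them and the rest lay below input, so this fit does not separate read depth from that choice of peaks. The RNF219 difference was then -0.16 on HNRNPA2B1, -0.22 on HNRNPH1 and -0.85 on HNRNPU (limma adjusted p = 0.818, 0.739 and 0.129). No combination passed among the 18 tested in that limma fit, and 3 had an unadjusted p under 0.05. The part of input depth in the RNF219 result was not tested further.

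**Figure D2:**
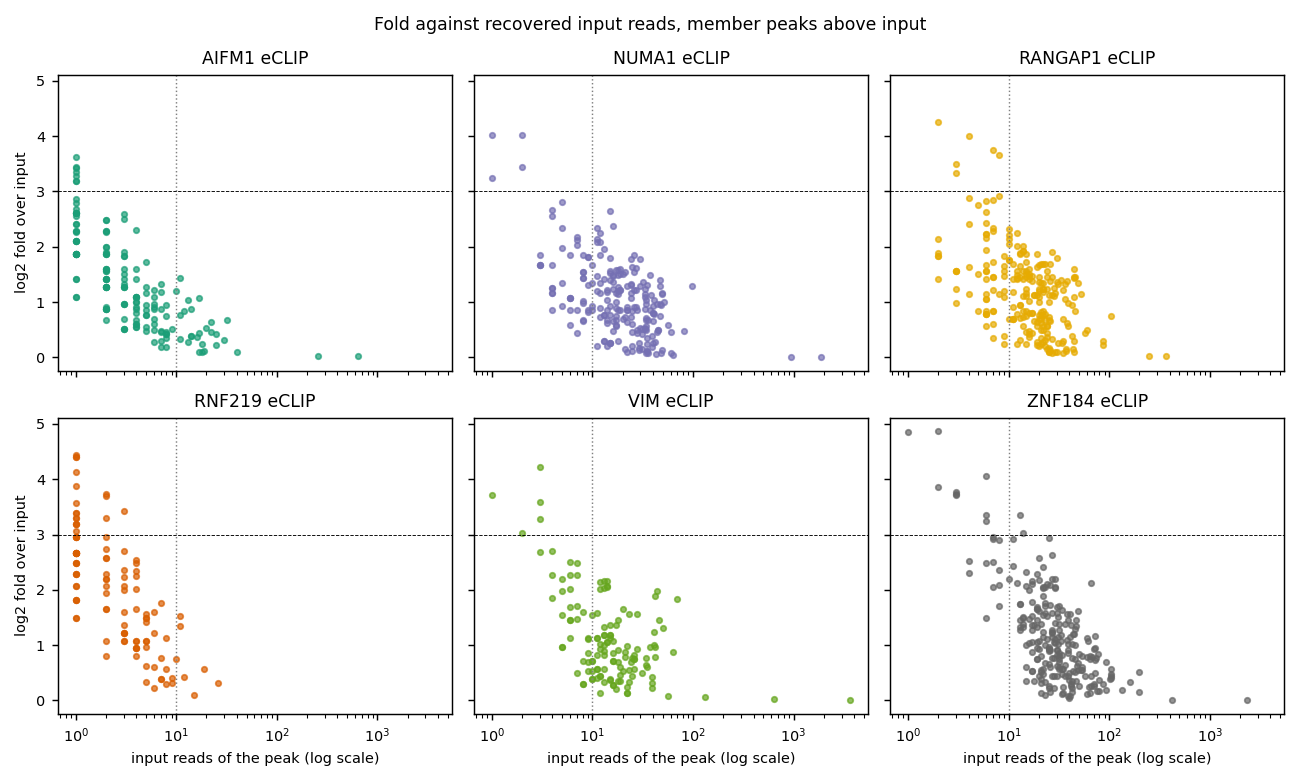
Log2 fold over input of member peaks above input (vertical axis) against their recovered input reads (horizontal log axis), by protein, with both replicates together where there are 2. The dotted line marks 10 input reads and the dashed line a log2 fold of 3. RNF219 and AIFM1 peaks lie mostly left of 10 input reads, and the other proteins' peaks mostly right of it.

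VIM was lower than the other proteins on all 6 transcripts, with a background of 29.2% of features lower and 3.80% higher. SRRM2 had a centred mean of -1.77 with VIM and -0.32 with the others, a difference of -1.45 ± 0.32 (SE, limma adjusted p = 0.00536). HNRNPU differed by -1.22 ± 0.30 (SE, adjusted p = 0.00979), and SON, the smallest, by -0.93 ± 0.29 (SE, adjusted p = 0.0251). The other 3 genes lay between, at -1.14 for SRSF3, -1.12 for HNRNPA2B1 and -1.09 for HNRNPH1. The median over the 6 genes was -1.13, against -0.42 over all features. The result rests on centring: VIM libraries had median folds of 2.27 and 2.22 over all peaks, against 0.68 to 1.42 in the other libraries, and on the deposited scale the 6 VIM differences ran from -0.39 to 0.13, with none past the threshold in limma, adjusted or not. On that scale the median VIM difference over all features was 0.64. Without VIM replicate 2 the differences were -1.05 on SRRM2, -1.02 on SRSF3, -1.01 on HNRNPH1, -0.87 on HNRNPU and -0.58 on SON, and none of these 5 passed (limma adjusted p 0.0769 to 0.258). Without VIM replicate 1, HNRNPA2B1 was at -0.96 (adjusted p = 0.0989). Without RNF219 the calls on HNRNPH1 (-0.81, adjusted p = 0.0629), SON (-0.75, 0.0727) and SRSF3 (-0.75, 0.0805) were lost, and without RANGAP1 replicate 1 that on SON (-0.89, 0.0529). With at least 5 peaks a gene, that on SRSF3 was lost (-1.02, adjusted p = 0.0641). With at least 10 input reads, the differences were -0.03 on HNRNPA2B1, 0.03 on HNRNPH1 and -0.03 on HNRNPU, and none passed. VIM member peaks above input with 10 or more recovered input reads had medians of 0.90 and 0.64, against 0.95 and 0.78 in other VIM peaks. With 4 to 9 they had 1.77 and 1.13, against 1.86 and 1.30. At 1 to 3, the 2 and 4 member peaks had 2.98 and 3.65, against 3.27 and 2.93. The part of input depth was not tested.

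SRSF3 differed in a further pair of proteins. It was higher with AIFM1, at a centred mean of 0.41 with AIFM1 and -0.80 with the others, a difference of 1.21 ± 0.29 (SE, limma adjusted p = 0.0148), where 21.4% of features were higher and 1.52% lower with AIFM1. It was lower with NUMA1, at -1.55 with NUMA1 and -0.41 with the others, a difference of -1.15 ± 0.29 (SE, adjusted p = 0.0473), where 1.67% of features were higher and 4.86% lower with NUMA1. The SRSF3 values came from 4 and 9 peaks with AIFM1 and from 7 and 6 with NUMA1. In both AIFM1 libraries the recovered input reads of these peaks had a median of 1.5. With at least 5 peaks a gene, the NUMA1 difference was -1.17 and did not pass (limma adjusted p = 0.0690). Without AIFM1 replicate 1 or 2 the AIFM1 difference was 1.21 or 1.20, with a single AIFM1 library left (limma adjusted p = 0.0582 and 0.0973), and without centring it was 0.68 (adjusted p = 0.171). The NUMA1 call was lost in 8 of 11 fits that left out 1 library. The difference was -0.65 without NUMA1 replicate 1 (adjusted p = 0.528), -1.64 without NUMA1 replicate 2 (adjusted p = 0.103) and -0.75 without RNF219 (adjusted p = 0.131), and -1.12 to -1.15 in the other 5 (adjusted p 0.0553 to 0.106).

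No gene passed with RANGAP1 or ZNF184 in the same limma fit. With RANGAP1, where 8.51% of features were higher and 6.38% lower, 2 genes had an unadjusted p under 0.05: SRRM2 at 0.73 ± 0.32 and SRSF3 at -0.75 ± 0.29 (SE). With ZNF184, where 27.8% of features were higher and 3.50% lower, 1 gene did, HNRNPU at -0.68 ± 0.30 (SE), and the members' median was -0.32 against 0.46 over all features.

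**Figure D3:**
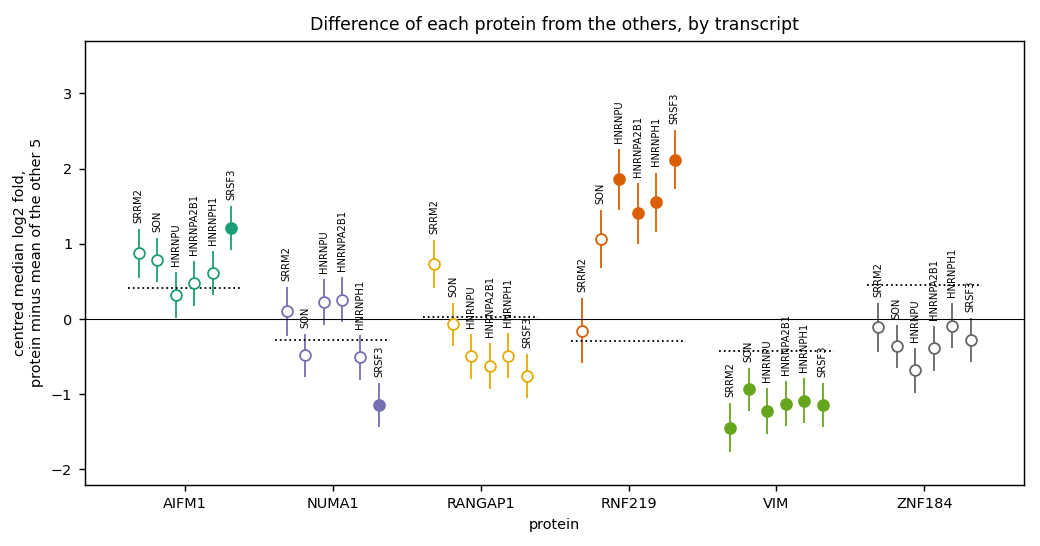
Difference in centred median log2 fold (vertical axis) between each protein (horizontal axis) and the mean of the other 5, for the 6 transcripts, with bars of 1 SE. Filled points passed an adjusted p of 0.05 and the dotted lines are the medians of all 658 features. RNF219 has 4 filled points above 0, VIM 6 below 0, AIFM1 1 above and NUMA1 1 below.

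Strong single peaks were few here, and they made up 0.214 to 5.29% of all peaks of a library. A peak was called at a log2 fold of 3 or more and a -log10 p of 3 or more, which 32 of the 1634 member peaks met, at 24 separate sites: 9 peaks in HNRNPA2B1, 8 in HNRNPH1, 7 in HNRNPU, 4 each in SON and SRRM2, and 0 in SRSF3. RNF219 had the largest share, 9 of 135 member peaks or 6.67% (95% Wilson interval 3.55 to 12.2), against 0.926% of all its peaks. Of these, 6 were in HNRNPA2B1, with log2 folds of 3.30 to 4.44, 2 in HNRNPH1 and 1 in HNRNPU, and they rested on 1 to 3 input reads. The intervals here cover counting error only, since peaks of a gene share their source.

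The other libraries had small counts. ZNF184 had 6 and 5 called member peaks, 2.33% and 2.35%, against 3.15% and 4.82% of all its peaks. RANGAP1 had 2 and 4, or 1.17% and 2.48%, against 1.52% and 2.99%. For a count of 0 the limit given is 3 peaks of the total. VIM had 0 of 86, which allows a share of up to 3.49% by that limit, and 2 of 93 or 2.15%, against 5.29% and 4.50%. NUMA1 had 3, or 1.84%, and 0 of 144, which allows up to 2.08%, against 1.51% and 0.877%. AIFM1 had 0 of 85, which allows up to 3.53%, and 1 or 0.800%, against 0.216% and 0.214%. Each of these shares had a Wilson interval of several percentage points.

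Both replicates of a protein called overlapping peaks at 5 sites, 3 of them with ZNF184 and 2 with RANGAP1. Such sites were not counted over all peaks, so whether 5 is many or few cannot be said. When the overlap had to cover at least 50% of each peak, 2 remained, with ZNF184 in HNRNPU and with RANGAP1 in HNRNPH1, since the paired peaks in HNRNPA2B1, SON and the RANGAP1 site of HNRNPU differ in extent. The site nearest to a 5′ end was in HNRNPA2B1, at chr7:26240318-26240347, 66 to 95 nt into the span. ZNF184 had log2 folds of 4.87 and 4.86 there, from 43 eCLIP and 2 input reads and from 19 and 1, with 95% intervals of 2.93 to 7.96 and 2.21 to 10.2. Overlapping peaks in 8 other libraries had -1.16 to 1.73, so both ZNF184 values stood above those 8. AIFM1 replicate 1 listed no peak, and the interval of AIFM1 replicate 2, 0.35 to 3.45, overlapped those of ZNF184.

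In SON the ZNF184 site was at chr21:34923401-34923456, 8051 to 8106 nt into the span, with 4.05 from 73 eCLIP and 6 input reads and 3.86 from 19 and 2. The 7 other libraries with a peak there had 0.13 to 1.87, the highest in RANGAP1 replicate 2. Both ZNF184 values were above those 7, while AIFM1 replicate 1 and RNF219 listed no peak. The interval of ZNF184 replicate 2, 1.81 to 7.01, overlapped that of RANGAP1 replicate 2, 1.04 to 2.74.

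HNRNPU held a pair of sites close together. At chr1:245026363-245026413, 1431 to 1481 nt into the span, RANGAP1 had 4.26 and 4.0, from 26 eCLIP and 2 input reads and from 36 and 4, while ZNF184 had 2.11 and 1.70 and NUMA1 had 1.79 and 1.58. At chr1:245026484-245026539, 1305 to 1360 nt into the span, ZNF184 had 3.35 and 3.24, each over 6 input reads, and RANGAP1 had 2.92 and 3.66, each over 8. AIFM1, VIM and RNF219 listed no peak at either site. Both RANGAP1 values were thus above the ZNF184 values at one of the neighbouring sites, while the values of both proteins overlapped at the other. At the former, the RANGAP1 intervals, 2.26 to 7.38 and 2.52 to 5.95, both overlapped that of ZNF184 replicate 1, 1.43 to 2.84. Both also overlapped those of NUMA1, 1.05 to 2.56 and 0.54 to 2.62. The interval of ZNF184 replicate 2, 0.96 to 2.49, overlapped only that of RANGAP1 replicate 1.

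In HNRNPH1, at chr5:179049904-179049948, 1752 to 1796 nt into the span, RANGAP1 had 3.50 and 3.33 and VIM replicate 2 had 3.58, all over 3 input reads. AIFM1 had 2.5 and 2.6 there, NUMA1 1.29 and 1.42, and ZNF184 0.15 and 1.02. RNF219 and VIM replicate 1 listed no peak. A site near the 3′ end of HNRNPH1, at chr5:179041674-179041782, 9918 to 10026 nt into the span, was called with RNF219 (3.74, from 38 eCLIP and 2 input reads) and with ZNF184 replicate 2 (3.03, from 75 and 14), and ZNF184 replicate 1 had 1.45.

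**Figure D4:**
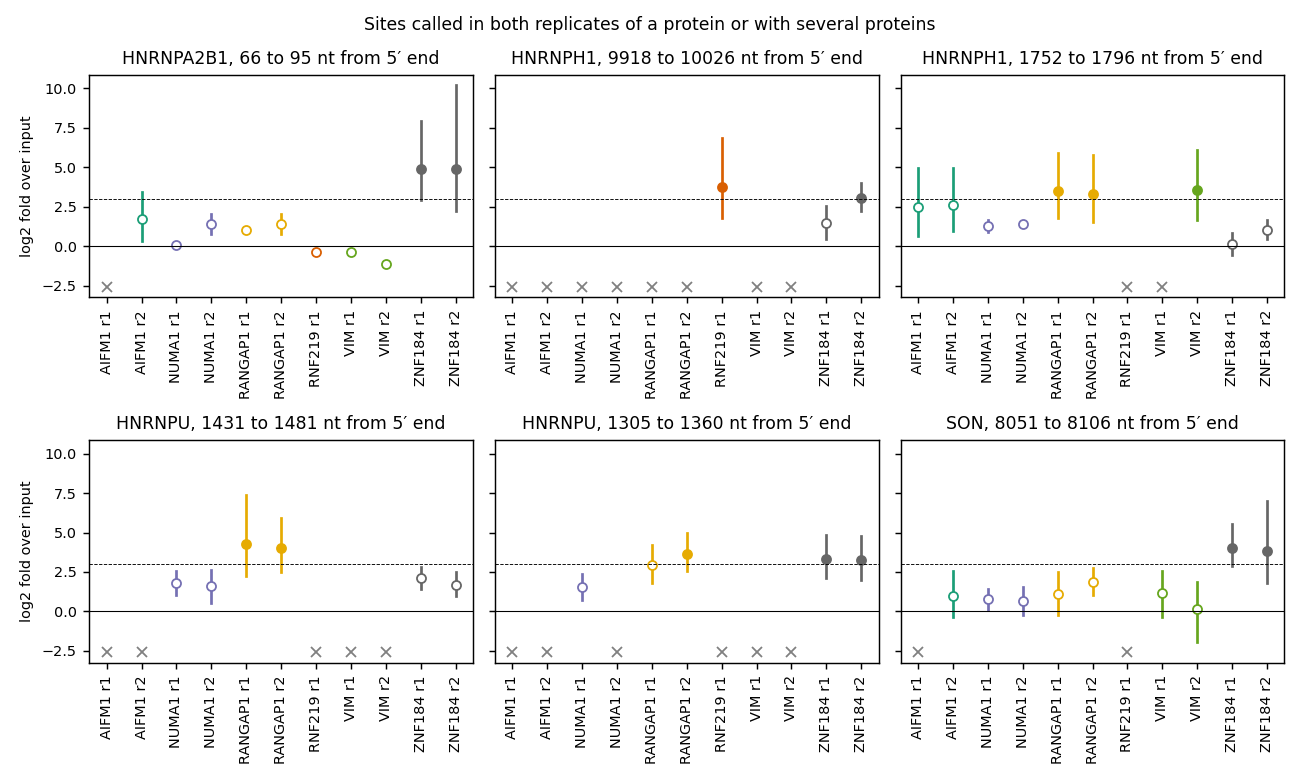
Log2 fold over input (vertical axis) in the 11 libraries at the 5 sites called in both replicates of a protein and at the 3′ HNRNPH1 site called with RNF219 and ZNF184. Filled points are called peaks, bars are 95% intervals where reads could be recovered, crosses mark libraries with no peak, and the dashed line is a log2 fold of 3. The ZNF184 replicates lie near 4.9 in HNRNPA2B1 and near 4 in SON, above all other libraries with a peak there.

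Exons and introns were not told apart, because no hg19 gene annotation was used here, and position was described by dividing each span into 3 equal parts, the 5′, middle and 3′ part. Outside RNF219, most called peaks were in the 5′ part. In libraries other than RNF219, 20 of 23 called member peaks (87.0%) lay in the 5′ part, which held 35.2% of their member peaks. With RNF219, 2 of 9 lay there, and 5 lay in the 3′ part. These counts come from few sites, several shared between libraries, and the difference was not tested.

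Median folds on HNRNPU differed between libraries in where they were highest. With RANGAP1 the 5′ part had 1.15 and 1.29, the middle -0.49 and -0.25, and the 3′ part 0.13 and -0.63, so both replicates were highest at the 5′ end. NUMA1 was also highest there in both replicates, at 1.79 and 1.15. Its middle part had 0.72 and 0.89 and its 3′ part 0.26 and 0.58. With RNF219 the 5′ part had 0.43, the middle 2.66 and the 3′ part 2.41. AIFM1 replicate 1 and VIM replicate 2 were also lower in the 5′ part, at 0.47 and 0.85, than in the 3′ part, at 1.41 (2 peaks) and 0.97. Their other replicates were not, as AIFM1 replicate 2 had 0.53 and 0.51 in those parts and VIM replicate 1 had 1.80 and 1.61. ZNF184 replicate 1 had 0.36 and 0.32 there. From the 5′ part to the middle, both AIFM1 replicates rose as RNF219 did, to 1.28 and 1.42 (7 peaks each). ZNF184 replicate 1 also rose, to 0.78, while replicate 2 fell from 0.04 to -0.19. On HNRNPA2B1, RNF219 had 0.63 in the 5′ part, 1.66 in the middle and 2.69 in the 3′ part, while ZNF184 had 1.01 and 0.76 in the 5′ part, -0.04 and -0.20 in the middle and 0.21 and 0.13 in the 3′ part. VIM replicate 2 and AIFM1 replicate 1 were also higher in the 3′ part there, at 2.07 over 3 peaks and 1.48 over 2, than in the 5′ part, at 0.71 and 0.60. AIFM1 replicate 1 had 0.38 in the middle. Their other replicates went the other way. VIM replicate 1 had 0.46 in the 5′ part and 0.24 in the 3′ part, and AIFM1 replicate 2 had 0.73 and 0.68.

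On HNRNPH1 the 5′ part was above the 3′ part in 9 of 11 libraries, including RNF219 with 2.95 and 1.41, RANGAP1 with 0.78 and 0.69 against -0.12 and -0.39, and VIM with 1.62 and 2.27 against 0.73 and 0.45. Only 4 peaks lay in the 5′ part in each VIM library. On HNRNPU and on HNRNPA2B1 the 5′ part was above the 3′ part in 8 of 11 libraries, on SRRM2 in 6 of 11, on SRSF3 in 6 of 8 and on SON in 3 of 6. SRRM2 divided the proteins: NUMA1 had 1.63 and 1.17 in the 5′ part against -0.31 and 0.76 in the 3′ part, while ZNF184 had 0.37 and -0.18 in the 5′ part and 1.18 and 0.78 in the 3′ part. Peaks of SON were concentrated at the 5′ side, with 132 in the 5′ part, 63 in the middle and 23 in the 3′ part.

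**Figure D5:**
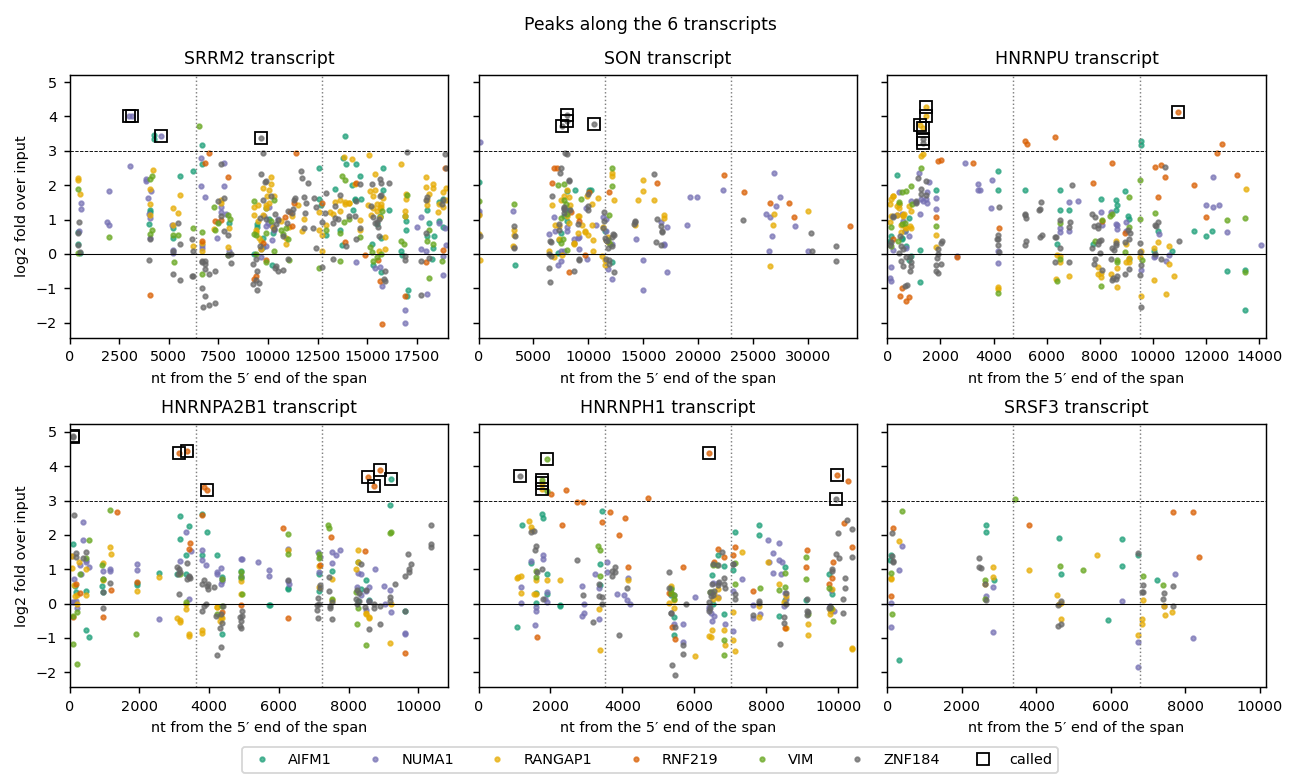
Log2 fold over input (vertical axis) of the 1634 member peaks by distance of the midpoint from the 5′ end of the span in nt (horizontal axis), coloured by protein. Black squares are the 32 called peaks, dotted lines divide each span into 3 equal parts, and the dashed line is a log2 fold of 3. Most called peaks lie in the 5′ part, and those in the 3′ part are mainly RNF219.

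Replicates ranked the same stretches alike to differing degrees. Over overlapping member peaks, Spearman's rho between replicates was 0.902 with RANGAP1 (119 peaks), 0.761 with AIFM1 (61), 0.749 with NUMA1 (100), 0.747 with ZNF184 (200) and 0.669 with VIM (52). The median absolute difference between replicates in log2 fold ran from 0.27 with RANGAP1 to 0.79 with VIM. These are correlations across peaks of 6 genes that share an input, and are given as descriptions. With at least 10 input reads in both replicates, rho with AIFM1 was -0.363 over 13 peaks, and the other 4 proteins had 0.511 to 0.870.

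The profile of a gene across the 11 libraries was compared with that of 482 windows and with the other members by Pearson's r of the centred medians. HNRNPU and HNRNPA2B1 were each other's nearest member (r = 0.911) and shared their most similar window, chr17:62490001-62500000 on the minus strand (0.941 and 0.933). SRSF3 and HNRNPH1 were also nearest to each other (0.906), and SON was nearest to SRSF3 (0.897). SRRM2 was least like the others, at 0.684 with SON. The windows most like the remaining genes were chr19:10790001-10800000 on the plus strand for SRRM2 (0.919), chr14:102550001-102560000 on the minus strand for SON (0.925), chr17:74730001-74740000 on the minus strand for HNRNPH1 (0.976) and chr11:10820001-10830000 on the minus strand for SRSF3 (0.940, over 10 libraries). These are the highest of many correlations over values that share libraries, input and depth, and carry no test.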

How the data were processed

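Peak lists of 11 eCLIP libraries were used as deposited, in hg19, per the submitters' processing notes, which name cutadapt, STAR, GATK, Picard and SAMtools. No source used here names the peak caller or its settings. Each peak carries the authors' deposited -log10 p against its size-matched input and the authors' deposited log2 fold over that input, with p listed as 0 for peaks below input. The authors deposited 1 list per library. The eCLIP and input reads of a peak were recovered as the whole numbers whose ratio gives the deposited fold at one depth ratio per library (tolerance 1e-07) and whose chi-square or exact test gives the deposited p. Of the folds, 95.1 to 98.9% fitted whole ratios, and the procedure was tested on simulated data. The recovered input reads set the depth behind each fold, and intervals are exact 95% limits of the recovered ratio, covering counting error only.

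Features were the 6 spans and 10-kb windows with at least 3 peaks in at least 8 libraries (1249, of which 658 had a value for every protein). Centred medians were fitted with limma 3.58.1 in R 4.3.3, without a replicate block, as protein minus the mean of the other 5. Same-numbered replicates of different proteins had correlated deviations of -0.128 to 0.197 over 306 features, so the numbers were not taken to pair samples. Other settings were the mean, no centring, at least 5 peaks, at least 10 input reads, a replicate block and leaving out each library. The setting of at least 10 input reads, also used for replicate rho, took the lower-bound count where reads were not recovered. It left out peaks without a whole ratio. Ratios were sought up to 200 eCLIP and 50 input reads in lowest terms, so peaks with more reads could lack one. The 6 genes and the tests were chosen with earlier results of these data known. The genes named are the 6 members, and the sites named are those called in both replicates of a protein or with more than 1 protein. Exons against introns and other splicing genes were not analysed here, as no hg19 annotation was used. RNF219 had 1 library here. Python 3.11.15, pandas 2.3.3 and scipy 1.17.1 were used.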

Additional observations from a re-analysis of the deposited data

How the results depend on the processing

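The count of 12 gene and protein combinations past the threshold was 12 with a replicate block, which changed no call, 12 with the mean over peaks, 13 with at least 5 peaks, and 6 to 14 when 1 library was left out, the lowest without RNF219, where its own 4 calls are missing and those of VIM on HNRNPH1, SON and SRSF3 and of NUMA1 on SRSF3 were lost, while those of AIFM1 on HNRNPH1 (0.96) and SON (1.04) were gained. It was 5 on deposited folds without centring (all 6 VIM calls lost, SON with VIM at 0.13), 0 of 18 with at least 10 input reads (29 features, 3 genes, 3 with an unadjusted p under 0.05 in limma), and 3 of 18 at sites with a peak in all 11 libraries (65 features, 3 genes), an alternative chosen after seeing the data. Those 3 were ZNF184 on HNRNPA2B1 (-1.88), HNRNPU (-1.74) and HNRNPH1 (-1.03). The RNF219 differences on SRSF3, HNRNPU, HNRNPH1 and HNRNPA2B1 passed in all 10 fits that left out 1 other library and without centring. With at least 10 input reads the 3 genes that could be tested changed sign (HNRNPA2B1 -0.16, HNRNPH1 -0.22, HNRNPU -0.85). At sites shared by all libraries HNRNPU did so (-0.96), while HNRNPA2B1 (0.46) and HNRNPH1 (0.72) kept their sign without passing. The median RNF219 difference over all features was 0.44 there. SRSF3 could be tested in neither setting. SRRM2 with RNF219 was 0.059 with the mean. With at least 5 peaks, the calls of NUMA1 (-1.17) and VIM (-1.02) on SRSF3 were lost. Those of AIFM1 on SON (0.78) and SRRM2 (0.88) and of RNF219 on SON (1.06) were gained in that setting. VIM differences changed sign at the shared sites (HNRNPA2B1 0.35, HNRNPH1 0.45, HNRNPU 0.86). With at least 10 input reads they were -0.029 on HNRNPA2B1, 0.032 on HNRNPH1 and -0.032 on HNRNPU. Apart from the smaller number of features and genes in the last 2 settings, the cause was not tested. The 32 called peaks fell to 12 at a log2 fold of 4, and the 5 reproducible sites to 2 there and to 2 when the overlap had to cover at least 50% of each peak. Replicate rho for AIFM1 was -0.363 with at least 10 input reads. Exon minus intron was not run. AIFM1 and RNF219 had the fewest input reads behind their peaks, and the part of input depth in their values was not tested. Their member peaks with recovered reads held a median of 2.5 to 4 input reads, against 12 to 29 in the other libraries.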
